A study of Rattus norvegicus with 10 samples.

Results

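Transcripts of the mitochondrial respiratory chain and ATP synthase were examined in the liver of rats fed 5 diets. The members were all probe sets whose platform annotation gives a single symbol beginning with Ndufa, Ndufb, Ndufc, Ndufs or Ndufv (complex I), Sdh followed by a to d (complex II), Uqcr (complex III), Cox4 to Cox8 (complex IV) or Atp5 (complex V). This gave 101 of 31099 probe sets, for 90 genes: 36 of complex I, 4 of complex II, 7 of complex III, 16 of complex IV, 16 of complex V, 10 assembly factors that share the letters Ndufaf or Sdhaf, and the pseudogene Cox6c-ps1. The complex was assigned from the letters of the symbol alone. A further 7 probe sets carried several symbols, among them Ndufa10, Uqcrb, Cox7a2 and Atp5mc1, and were left out by the rule. Of the members, 90 probe sets for 83 genes were bright enough to be tested.

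Male Wistar rats, an outbred laboratory strain, ate standard chow or a diet that supplied 42% of energy as fat, for 12 weeks. The 4 high-fat diets took their fat from coconut, fish oil, lard and olive oil. For the fish oil diet the series' design text names cod liver oil. All groups, chow included, were fasted overnight before a piece of liver was frozen, and each diet has 2 arrays. The chow's fat share was not given in the sources used here, so a comparison with chow mixes the kind of fat with its amount. Whether RNA was pooled is not stated in the labels, and the p-values cover only differences between these 10 samples, which may be technical. The measure is the MAS5 signal, a background-corrected brightness of each probe set on a linear scale that had been scaled alike on all arrays. Array medians were 28.7 to 31.9, except 36.8 on the second lard array. The GAPDH control gave a signal at its 3′ end 0.96 to 1.19 times that at its 5′ end, and beta-actin 2.10 to 2.75 times, with the highest beta-actin ratio on the second olive oil array. All 11 hepatocyte markers on the array were above background on every array, with summed signals of 81860 to 94290. In whole liver, fewer cells of a type and less RNA per cell cannot be told apart.

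Oxidative phosphorylation passes electrons from NADH through complex I, and from succinate through complex II, to ubiquinone, then through complex III and cytochrome c to complex IV, which reduces oxygen to water. Complexes I, III and IV pump protons out of the mitochondrial matrix, and complex V, the ATP synthase, lets them return and makes ATP. All subunits listed here are encoded in the nucleus, while further subunits of complexes I, III, IV and V are encoded by mitochondrial DNA. In the fasted liver the chain takes up electrons released by fatty acid oxidation and supplies ATP for gluconeogenesis. The nuclear genes share regulatory elements that bind nuclear respiratory factor 1 (NRF1), ETS-family factors such as GABP (nuclear respiratory factor 2) and YY1.

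Promoter windows from RefSeq (GRCr8), reaching from 250 bases before to 50 after each gene's start, were matched by symbol for 82 of the 90 genes and searched on both strands. The NRF1 letters, GCGCA and GCGC with any 1 base between them, occurred in 17 windows (20.7%), against 5.66% of 21842 windows of coding genes. The ETS core CCGGAAG occurred in 25 (30.5%, against 10.7%) and the YY1 letters AAGATGGC in 17 (20.7%, against 3.68%). At least 1 of these was found in 48 windows (58.5%, against 17.9%). The letters of the estrogen-related receptor element, TCAAGGTCA, were in 2 windows (2.44%, against 0.366%). The GC box GGGCGG was in 38 (46.3%, against 41.8%) and TATAAA in 8 (9.76%, against 13.0%). None of these motifs contains another of them. A match is a description of letters and does not show binding. The stretches below are the 100 bases before the start of 1 gene for each complex, and of Cox8b as an isoform whose transcript was not above background here. They are written 5′ to 3′ on the gene's strand, with matches to NRF1, ETS or TATAAA letters in capitals. Other motifs were left unmarked, among them GC box letters in the stretch of Cox8b. Ndufs8 lies at chr1:210573699-210573798 (minus strand), Sdha at chr1:30764453-30764552 (plus), Uqcrc1 at chr8:118468123-118468222 (plus), Cox8a at chr1:213833624-213833723 (minus), Atp5po at chr11:44657484-44657583 (minus) and Cox8b at chr1:205408274-205408373 (minus).
Ndufs8: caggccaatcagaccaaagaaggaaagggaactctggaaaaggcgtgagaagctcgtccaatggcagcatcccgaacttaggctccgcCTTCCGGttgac
Sdha: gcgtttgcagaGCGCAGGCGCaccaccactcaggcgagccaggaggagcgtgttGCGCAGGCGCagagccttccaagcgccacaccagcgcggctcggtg
Uqcrc1: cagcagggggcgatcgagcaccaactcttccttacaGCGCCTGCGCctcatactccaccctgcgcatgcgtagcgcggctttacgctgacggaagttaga
Cox8a: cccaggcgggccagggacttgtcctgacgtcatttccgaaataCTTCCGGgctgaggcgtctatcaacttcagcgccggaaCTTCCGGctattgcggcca
Atp5po: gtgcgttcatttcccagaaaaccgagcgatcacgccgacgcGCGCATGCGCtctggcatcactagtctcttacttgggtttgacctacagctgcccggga
Cox8b: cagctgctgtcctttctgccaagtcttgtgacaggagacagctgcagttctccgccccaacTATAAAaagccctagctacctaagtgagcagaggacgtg

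The first question was whether any of the diets changed this gene set against chow. At an adjusted p under 0.05 no member passed limma's test, and the members were measured more tightly than most genes. Fold changes are differences of log2(signal + 3.1), and the offset of 3.1 understates changes of dim genes. The share of all 18625 tested probe sets that passed was 0.0161% for lard, 0.0268% for olive oil, 0.0% for coconut fat, 0.156% for fish oil, 0.0376% for the mean of the high-fat diets against chow, 0.424% for fish oil against the other 3 high-fat diets, 0.0% for coconut fat against lard and olive oil, 0.0% for olive oil against lard and 0.14% in the F-test for any difference. With so few calls among all genes, 0 calls among 90 members is near the background. At an unadjusted limma p under 0.05, the members numbered 2 with lard (against 7.99% of all tested), 4 with olive oil (8.38%), 3 with coconut fat (5.43%), 3 with fish oil (7.63%), 1 for the mean of the high-fat diets (6.66%), 8 for fish oil against the others (11.8%), 7 for coconut fat against lard and olive oil (6.71%), 3 for olive oil against lard (6.23%) and 5 in the F-test (9.4%). The members' share was below that of all probe sets in 8 of these 9 tests, the exception being coconut fat against lard and olive oil.

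The intervals give the size of change that these arrays leave possible. The median mean signal of the tested members was 1268, against 73.2 over all tested probe sets, and the median pooled SD between arrays of a diet was 0.16 log2 units, against 0.29. The 95% interval of the log2 fold change lay within ±1, a 2-fold change, for 84 of 90 members with lard, 85 with olive oil, 83 with coconut fat and 85 with fish oil, against 53.5% to 55.4% of all tested probe sets. It lay within ±0.5, a 1.41-fold change, for 49 to 52 members in these comparisons. The fitted change itself stayed within ±0.5 with all 4 diets for 81 of 90 members (54.7% of all tested). The other 9 probe sets belonged to Ndufv3, Cox5a, Atp5if1, Atp5me, Ndufaf1, Ndufaf4 and Ndufaf5, and 7 of them had a mean signal under 100.

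**Figure D1:**
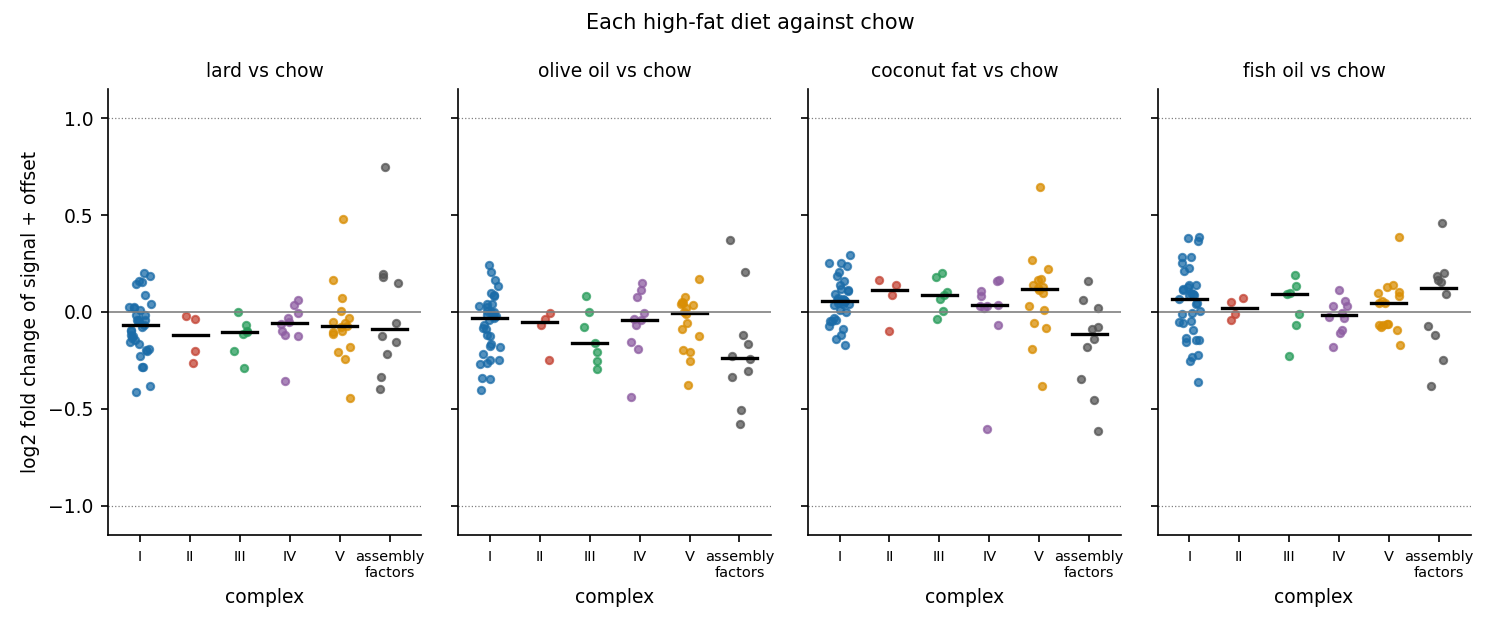
Log2 fold change against chow of the tested genes of complexes I to V and of the assembly factors, 1 point per gene (its brightest tested probe set) and 1 panel per diet, with black bars at the medians and dotted lines at 2-fold. No gene reaches 2-fold in any panel, and the points farthest from 0 are Ndufaf1 with lard at 0.75, Atp5me with coconut fat at 0.64 and Ndufaf4 with coconut fat at -0.61.

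By symbol, complex I, the NADH dehydrogenase, had 35 tested genes with mean signals from 176 (Ndufs4) to 3019 (Ndufa4). Whether each of these, Ndufa4 included, is a subunit of complex I was not checked. The median log2 fold change of the 35 genes was -0.069 with lard, -0.034 with olive oil, 0.055 with coconut fat and 0.065 with fish oil. Ndufs1, the large iron-sulfur subunit, read 588 and 758 with chow, 631 and 665 with lard, 650 and 710 with olive oil, 761 and 636 with coconut fat and 788 and 842 with fish oil. Both fish oil arrays were above every other array of Ndufs1, and the difference from chow was 0.29 ± 0.16 (SE; limma adjusted p = 0.757). Ndufv1, the flavoprotein that accepts electrons from NADH, read 658 and 828 with chow, 671 and 619 with lard, 817 and 704 with olive oil, 751 and 766 with coconut fat and 852 and 877 with fish oil. Its fish oil arrays were also the highest of the 10. Ndufs3, another core subunit, read 899 and 1013 with chow and 1170 and 1290 with fish oil, a difference of 0.36 ± 0.14 (SE; limma adjusted p = 0.543). Coconut fat overlapped that range, with 1223 and 1058. Ndufa7, an accessory subunit, read 1153 and 1123 with chow and 886 and 821 with lard, without overlap (-0.41 ± 0.15, limma adjusted p = 0.549). A second, dim probe set of Ndufa7 (mean signal 51.2) went the other way with lard, at 0.29. Ndufb10 was below both chow arrays on all 8 high-fat arrays, with 1067 and 1138 for chow and 918 to 1051 for the others. Among the genes whose arrays did not overlap those of the other group, the accessory subunits Ndufb1 with lard (0.18 ± 0.13), Ndufa1 with olive oil (0.13 ± 0.14), Ndufb5 with coconut fat (0.24 ± 0.16) and Ndufa5 with fish oil (0.39 ± 0.23, SE) were among the 3 highest against chow. Each of these differences was less than 2 SE.

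Complex II, succinate dehydrogenase, is the one member of the chain that also works in the tricarboxylic acid cycle. Sdha, the flavoprotein subunit, read 1544 and 1687 with chow, 1306 and 1512 with lard, 1653 and 1498 with olive oil, 1481 and 1534 with coconut fat and 1394 and 1763 with fish oil. Sdhb, the iron-sulfur subunit, read 1970 and 2702 with chow, 2029 and 1818 with lard, 2033 and 1859 with olive oil, 2535 and 2374 with coconut fat and 2215 and 2653 with fish oil. The chow arrays of Sdhb spanned all 8 high-fat arrays but 2, 1 of lard and 1 of olive oil. The membrane anchors Sdhc and Sdhd stayed close to chow, the farthest being Sdhc with coconut fat at 0.16 ± 0.17 (SE).

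Complex III, cytochrome c reductase, had 7 tested genes. Uqcrc1, a core protein, read 944 and 1227 with chow, 1094 and 965 with lard, 1134 and 1148 with olive oil, 1160 and 1125 with coconut fat and 1119 and 1350 with fish oil. Every diet overlapped chow. Uqcrfs1, the Rieske iron-sulfur protein, read 1855 and 2479 with chow, 2021 and 1939 with lard, 1909 and 1808 with olive oil, 2407 and 2530 with coconut fat and 2182 and 2410 with fish oil. Its coconut fat arrays lay above all lard and olive oil arrays. Uqcrh, the hinge protein, was lowest with fish oil (1250 and 1384, against 1462 and 1624 with chow, -0.23 ± 0.13). The fish oil arrays lay below all arrays of the other 3 high-fat diets, but narrowly, as the second coconut fat array read 1386.

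Complex IV, cytochrome c oxidase, had 10 tested genes and held the tightest of the named members. Cox4i1, the common isoform of subunit 4, read 3838 and 3869 with chow, 3555 and 3514 with lard, 3864 and 3647 with olive oil, 3887 and 3995 with coconut fat and 3616 and 3952 with fish oil. Its log2 fold changes against chow ran from -0.12 to 0.032, with 95% intervals between -0.38 and 0.28 over the 4 diets. Cox5a, subunit 5A, was the dimmest tested gene of the complex and the one with the widest differences. It read 112 and 125 with chow, 112 and 75.7 with lard, 76.8 and 97.6 with olive oil, 83.6 and 70.8 with coconut fat and 104 and 103.9 with fish oil. All 8 high-fat arrays of Cox5a were below both chow arrays. The difference was -0.60 ± 0.24 (SE) with coconut fat (limma adjusted p = 0.879) and -0.39 ± 0.19 for the mean of the high-fat diets (adjusted p = 0.770). Of the members, 16 probe sets were below chow in the mean with all 4 diets, as were 17.6% of all tested, and 8 were above with all 4 (18.7% of all). All 8 high-fat arrays were below both chow arrays for 3 members, Ndufb10, Cox5a and Ndufaf4, against 2.51% of all tested probe sets, and above them for 0, against 2.55%.

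Complex IV also has isoforms that other tissues use. The 7 genes too dim to be tested were Cox4i2, Cox6a2, Cox6b2, Cox7a1, Cox7b2, Cox8b and Ndufa4l2, the last counted with complex I by its symbol. Cox6a2, Cox7a1 and Cox8b are isoforms of heart and skeletal muscle, Cox6b2 and Cox7b2 are known from testis, and Cox4i2 from lung. Background was set at a signal of 12.8, the highest value of 1 family of bacterial control probe sets, those for trp. Cox8b was below it on all 10 arrays, at 2.3 to 5.6, while the common isoform Cox8a was above it on all, at 2494 to 3275. Cox4i2 was above the bound on 4 arrays, Cox6b2 on 3 and Cox6a2 on 2, never on both arrays of a diet, and Cox7b2 on 4, of which 2 were those of olive oil. Cox7a1 was above it only on the 2 coconut fat arrays, at 30.0 and 21.8, with 3.0 to 10.5 on the other 8. Ndufa4l2, a paralogue of Ndufa4, was above it with fish oil (25.2 and 30.8), coconut fat (15.7 and 17.6) and on 1 olive oil array (16.1), and below it with chow and lard (4.5 to 11.3). These genes were not tested, and a signal near the bound gives no fold. Of 20 probe sets for 13 striated muscle markers, those of Myh1 (175 to 3746) and Ckm (24.3 to 59.4) were above the bound on every array. Tnni2 was above it on 8 arrays and Myh4 on 0. Each probe set of the other markers was above it on 5 arrays or fewer, among them Acta1 on 2 and Ttn on 3. Of the 6 dim genes with a promoter window, 0 had the NRF1 or ETS letters in it, and Ndufa4l2 had the YY1 letters. With NRF1 letters in 5.66% and ETS letters in 10.7% of all coding windows, 6 windows are too few to set these genes apart.

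**Figure D2:**
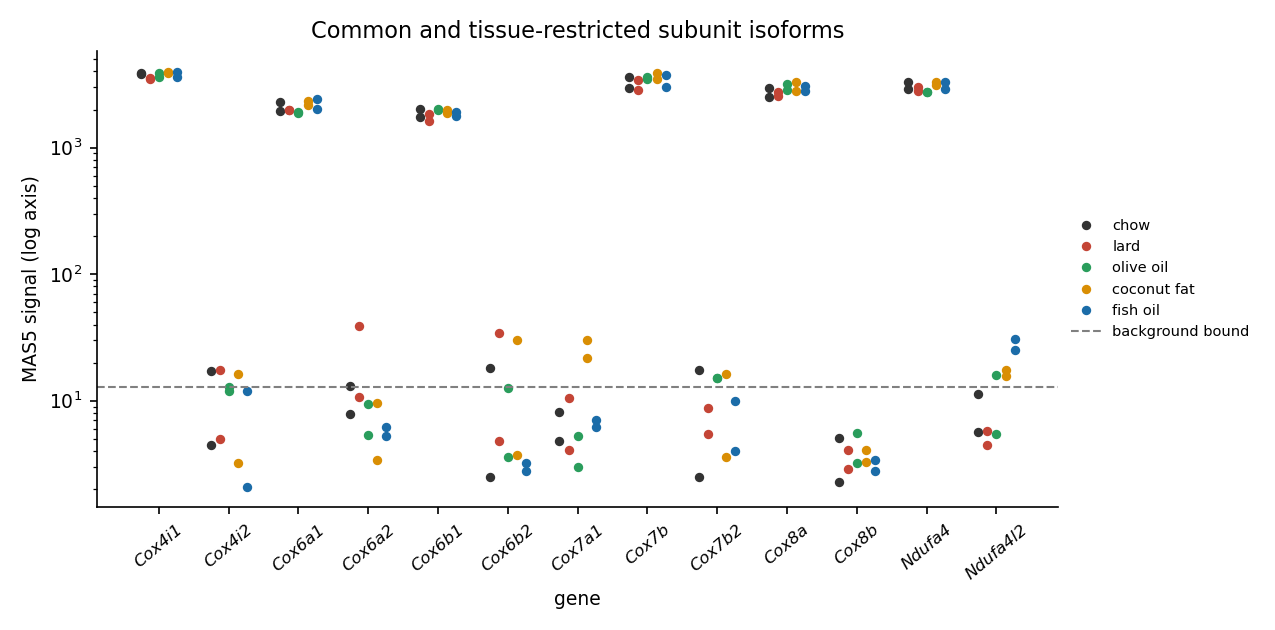
MAS5 signal (log axis) on each of the 10 arrays for common and tissue-restricted subunit isoforms and Ndufa4 with its paralogue Ndufa4l2; colours are diets and the dashed line is the background bound of 12.8. Signals of different probe sets are not comparable in level, so each gene is to be read against the line: the common isoforms lie far above it on every array, Cox8b below it on every array, and Cox7a1 above it only with coconut fat.

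Complex V had 16 tested genes. Atp5f1a, the alpha subunit, read 1995 and 2603 with chow and 2085 to 2614 on the high-fat arrays. Atp5f1b, the catalytic beta subunit, read 3238 and 3673 with chow, 3216 and 3238 with lard, 3426 and 3200 with olive oil, 3709 and 3759 with coconut fat and 3936 and 3464 with fish oil. The coconut fat arrays of Atp5f1b were above chow by 0.11 ± 0.12 (SE), less than its error. Atp5me, subunit e of the membrane part, read 1000 and 678 with chow, 1430 and 922 with lard, 876 and 980 with olive oil, 1546 and 1071 with coconut fat and 1060 and 1098 with fish oil. Its coconut fat and fish oil arrays lay above chow, by 0.64 ± 0.25 (limma adjusted p = 0.856) for coconut fat.

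Atp5if1 encodes the inhibitor that blocks ATP hydrolysis by the synthase, and its 3 probe sets disagreed. The brightest read 191 and 217 with chow, 150 and 148 with lard, 183 and 134 with olive oil, 141 and 172 with coconut fat and 188 and 247 with fish oil. It was below chow without overlap with lard, olive oil and coconut fat. The second read 38.2 and 44.9 with chow, 44.9 and 66.5 with lard, 13.9 and 24.0 with olive oil, 30.3 and 41.4 with coconut fat and 52.2 and 58.0 with fish oil. Olive oil was the lowest diet there, with a difference from lard of -1.43 ± 0.36 log2 units (SE; limma unadjusted p = 0.0021, adjusted p = 0.675), whereas the brightest probe set gave a difference of 0.069 between the same diets. For fish oil against the other high-fat diets the 3 probe sets had the same sign, at 0.48 ± 0.18, 0.68 ± 0.29 and 0.81 ± 0.54 (SE), with limma adjusted p-values of 0.306, 0.395 and 0.608. They share a transcript, and the third carries the suffix of probe sets that may cross-hybridise.

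The assembly factors, proteins that help build complexes I and II without being part of them, were dimmer and more variable, with a median pooled SD of 0.25 log2 units against 0.14 for complex I. Ndufaf1 read 49.5 and 44.6 with chow and 93.0 and 70.4 with lard, 0.75 ± 0.32 higher (limma adjusted p = 0.605). Ndufaf4 read 253 and 264 with chow, 188 and 222 with lard, 135 and 219 with olive oil, 187 and 151 with coconut fat and 223 and 211 with fish oil. All 8 high-fat arrays of Ndufaf4 were below chow, with a mean difference of -0.44 ± 0.18 log2 units (SE; limma unadjusted p = 0.0321, adjusted p = 0.681), and it was the single member with an unadjusted p under 0.05 in that comparison. Ndufaf5 had a difference of -0.50 ± 0.29 with olive oil and -0.45 ± 0.29 with coconut fat against chow, Ndufaf8 of 0.37 ± 0.23 with olive oil and Sdhaf1 of -0.39 ± 0.23 with lard (SE), all without overlap. Sdhaf4, a factor for the maturation of Sdha, read 160 and 137 with chow, 184 and 157 with lard, 119.2 and 119.4 with olive oil, 165 and 144 with coconut fat and 232 and 180 with fish oil. Fish oil was 0.48 ± 0.16 log2 units above the other high-fat diets (limma adjusted p = 0.268, the smallest of any member in any comparison), with 1 lard array above the lower fish oil array.

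**Figure D3:**
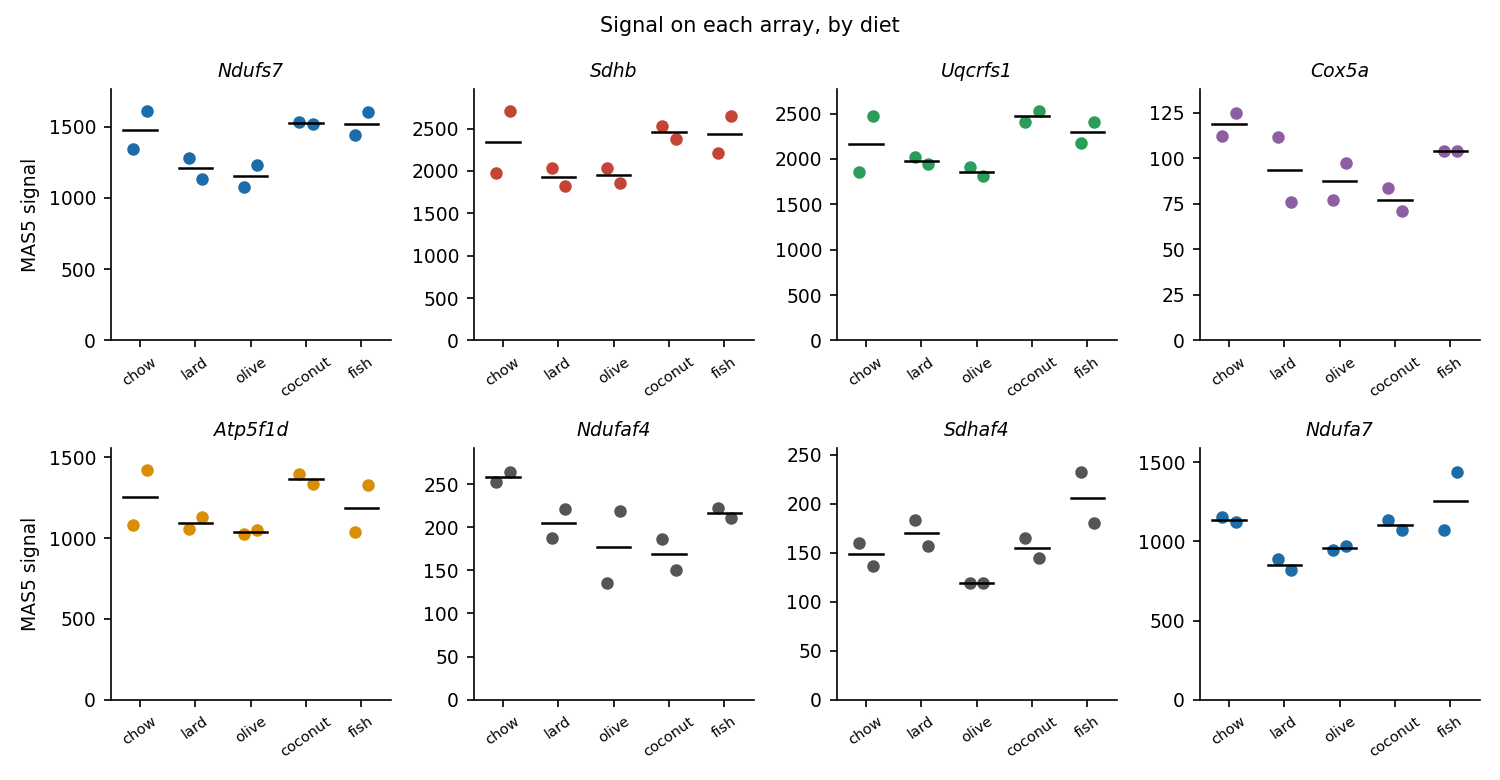
MAS5 signal on each array for 8 genes of complexes I to V and the assembly factors, 2 arrays per diet as points and their mean as a bar, with linear axes from 0. Ndufs7, Sdhb, Uqcrfs1 and Atp5f1d have both coconut fat arrays above all lard and olive oil arrays, Cox5a and Ndufaf4 have every high-fat array below chow, and Sdhaf4 has its highest array with fish oil.

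Members moved together from array to array, and the duplicates of a diet differed by as much as the diets did. For each gene the deviation from its mean over the 10 arrays was taken, and the median over the 83 genes was -0.080 and 0.12 log2 units on the chow arrays, -0.040 and -0.10 with lard, -0.10 and -0.032 with olive oil, 0.13 and 0.00082 with coconut fat and -0.057 and 0.15 with fish oil. The pooled SD between duplicates was 0.10. The second chow array exceeded the first for 69 of 83 genes and the second fish oil array the first for 71, while the first coconut fat array exceeded the second for 65. Complexes I, II, III, IV and V followed the same order of duplicates with chow, coconut fat and fish oil. The brightest 25% of all 10470 tested genes stayed between -0.072 and 0.044 on all arrays, with 0.024 and 0.020 for chow. Genes that move together are not independent, so the counts of members above or below 0 given next are descriptions of these arrays.

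**Figure D4:**
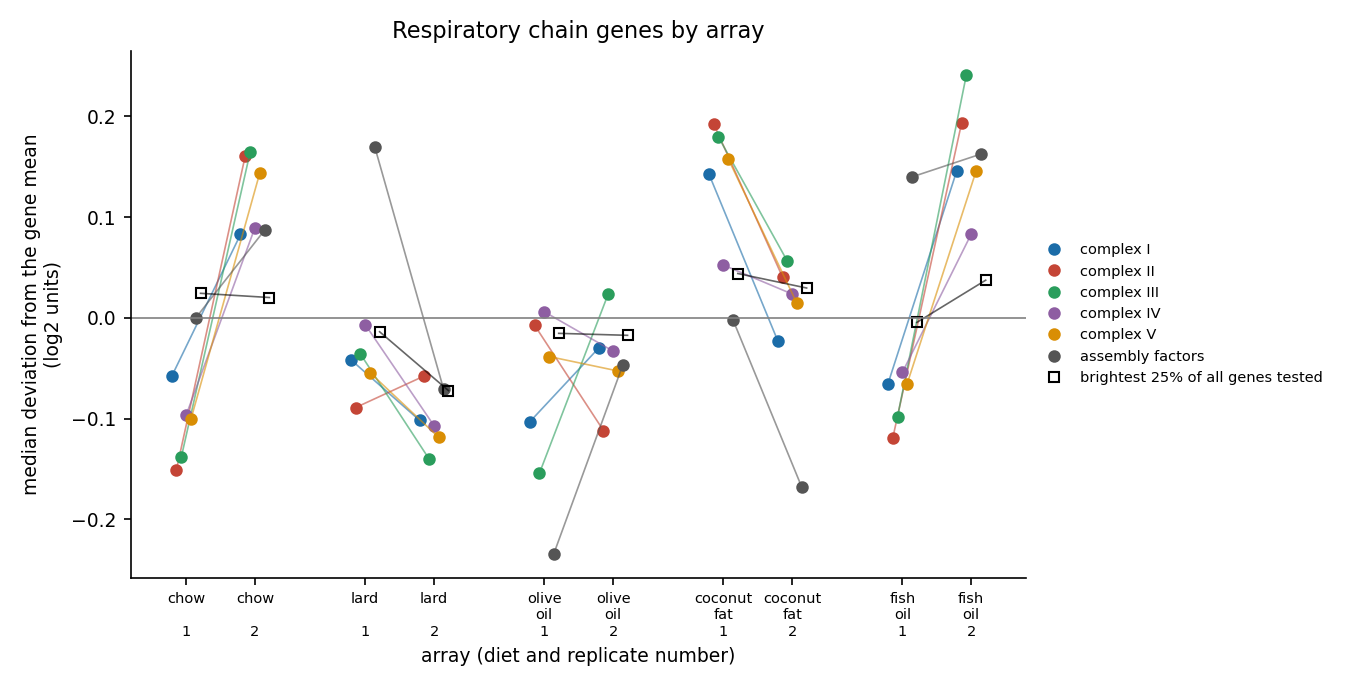
Median deviation (log2 units) of the genes of each complex from their own mean over the 10 arrays, by array, with lines joining the 2 arrays of a diet; open squares are the brightest 25% of all tested genes. Complexes I to V move in parallel between duplicates of chow, coconut fat and fish oil, across as wide a range as between diets, while the squares stay within 0.072 of 0.

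Against chow, the median over the member genes was -0.077 with lard (22 genes above 0 and 61 below), -0.059 with olive oil (25 and 58), 0.055 with coconut fat (57 and 26) and 0.048 with fish oil (46 and 37), and -0.0098 for the mean of the 4 diets (40 and 43). Over all genes tested the medians lay within ±0.015, and over the brightest 25% they were -0.066, -0.034, 0.024 and 0.0012 for the 4 diets. The scaling of the arrays moved these splits. With quantile normalization lard turned to 45 above and 38 below (median 0.014) and olive oil to 38 and 45 (-0.0076). With every array set to the same 75th percentile, lard had 13 above and 70 below (-0.14). The direction with lard is therefore not fixed by these data. The 2 lard arrays lay below both chow arrays for 19 of 90 probe sets (16.7% of all tested) and above for 8 (23.0%). For olive oil these were 26 below (17.5%) and 3 above (20.5%), for coconut fat 10 below (19.2%) and 12 above (17.1%), and for fish oil 7 below (19.0%) and 15 above (17.5%). In 10 of 90 probe sets 1 high-fat diet lay above and another below both chow arrays (12.4% of all tested).

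Coconut fat, whose fatty acids are mostly saturated and of medium chain length, was then set against lard and olive oil averaged. The data showed higher signals for most members with coconut fat, each by a small amount: 70 of 83 genes were above 0 with a median of 0.11 log2 units. Of the 72 genes given to complexes I to V by symbol, the inhibitor Atp5if1 included, 65 were above 0 with a median of 0.13. The median was 0.12 for complex I (30 of 35 above 0), 0.19 for complex II (4 of 4), 0.23 for complex III (7 of 7), 0.078 for complex IV (9 of 10) and 0.13 for complex V (15 of 16). It was 0.0042 for the assembly factors (5 of 10). The brightest 25% of all genes had a median of 0.066 with 1718 of 2618 above 0, and all genes a median of -0.013. Hepatocyte markers had 8 of 11 genes above 0 (median 0.058) and stellate cell markers 1 of 7 (median -0.24), and the GAPDH 3′ to 5′ ratio was highest on the olive oil arrays (1.10 and 1.19); their part in the result was not tested. No member passed limma's test in this comparison. The split was 55 above and 28 below with quantile normalization (median 0.053) and 75 and 8 with the same 75th percentile (0.18).

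Both coconut fat arrays lay above all 4 lard and olive oil arrays for 26 of 90 members (28.9%), against 6.55% of all tested probe sets, and below them for 2 (9.37% of all). All tested probe sets were dimmer than the members (median mean signal 73.2, against 1268), and the share among bright probe sets alone was not counted. The 26 came from complexes I (12), II (3), III (4), IV (3) and V (4), with none from the assembly factors. With quantile normalization the count was 14 (15.6%, against 7.33% of all), with the same 75th percentile 38 (42.2%, against 10.3%), and without the second lard array 27 (30%, against 9.61%). Ndufs7, which holds the last iron-sulfur cluster before ubiquinone, had the highest fold change. It read 1284 and 1134 with lard, 1080 and 1231 with olive oil and 1536 and 1517 with coconut fat, 0.37 ± 0.12 higher (SE; limma unadjusted p = 0.0126, adjusted p = 0.634). Its chow arrays, at 1342 and 1608, spanned those of coconut fat. Uqcrfs1 was higher by 0.36 ± 0.13, Atp5f1d (the delta subunit of the synthase's rotor) by 0.36 ± 0.14 and Sdhb by 0.34 ± 0.14, with limma adjusted p-values of 0.677, 0.712 and 0.720. Atp5f1d read 1056 and 1129 with lard, 1027 and 1050 with olive oil and 1395 and 1334 with coconut fat. Against these, the dimmer probe set of Ndufv3 differed by -0.90 ± 0.27 with coconut fat (52.1 and 81.1, against 131, 147, 152 and 81.5; limma adjusted p = 0.595), while the brighter one was 0.28 higher. Ndufa12, an accessory subunit of complex I, was the other member without overlap below lard and olive oil, at -0.11 ± 0.15 (SE). The lowest gene by its brightest probe set was Ndufaf8, at -0.46 ± 0.20 (SE; limma adjusted p = 0.731), whose arrays overlapped.

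**Figure D5:**
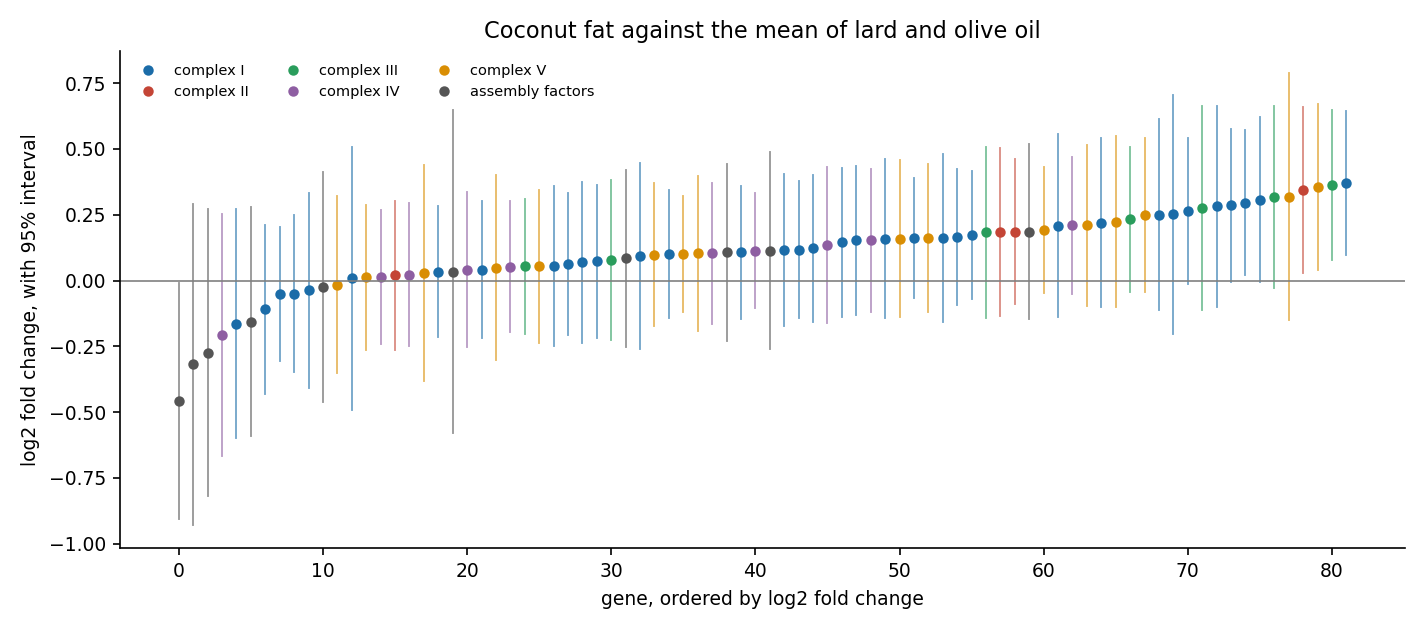
Log2 fold change of coconut fat against the mean of lard and olive oil for each tested gene of complexes I to V and the assembly factors, in rising order, with 95% intervals from limma not corrected for the number of genes. Most points lie slightly above 0, 5 intervals lie wholly above 0 and 1 wholly below it, Ndufs7 is highest at 0.37 and Ndufaf8 lowest at -0.46.

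The comparison of fish oil with the 3 other high-fat diets had the most calls among all genes but none among the members. The median was 0.043 (54 above 0 and 29 below), and it changed sign with quantile normalization (-0.023, 38 and 45) and rose to 0.095 (69 and 14) with the same 75th percentile. Both fish oil arrays were above all 6 other high-fat arrays for 4 members (5.96% of all tested), the probe sets of Ndufs1, Ndufv1, Atp5if1 and Sdhaf3, and below them for 1, Uqcrh (6.8% of all). At an unadjusted limma p under 0.05 there were 8 member probe sets (8.89%, against 11.8% of all tested). All 8 were higher with fish oil, with Atp5if1 among them by more than 1 probe set. The share of each direction among all tested probe sets was not counted. Ndufa7 was higher by 0.36 ± 0.12 and Sdhaf3 by 0.38 ± 0.14 (limma adjusted p = 0.280 and 0.317). Olive oil against lard had a median of 0.0076 (44 above and 39 below), which became -0.028 (29 and 54) with quantile normalization. Among the genes' brightest probe sets, the lowest differences without overlap were -0.65 ± 0.29 for Ndufaf5, -0.54 ± 0.32 for Ndufaf1 and -0.50 ± 0.20 for Sdhaf4, and the highest were 0.23 ± 0.15 for Ndufv1, 0.20 ± 0.13 for Cox6b1 and 0.19 ± 0.17 for Ndufb3 (SE).

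Neighbouring mitochondrial pathways were read from the same fit. Of 16 genes of mitochondrial fatty acid oxidation, which feeds electrons into the chain, 15 were above 0 with fish oil against chow (median 0.40) and 15 against the other high-fat diets (median 0.32). Only Cpt2, carnitine palmitoyltransferase 2, passed, at 0.75 ± 0.12 against the other high-fat diets (limma adjusted p = 0.0311). The list's largest change against chow was that of Eci1, an isomerase for unsaturated fatty acids, at 1.12 ± 0.30 (adjusted p = 0.281), with 2422 ± 1245 for chow and 4930 ± 495 for fish oil (SD, n = 2). The median of the 72 genes given to complexes I to V by symbol was 0.046 and 0.033 in those comparisons. Of the 12 tricarboxylic acid cycle genes, 12 were above 0 with coconut fat against lard and olive oil (median 0.17) and 0 passed in any comparison. The lists of electron entry (8 genes tested), coenzyme Q synthesis (12), assembly factors of complexes I, III, IV and V (35, some of them members), regulators of mitochondrial biogenesis (22), cytochrome c and Cyc1 (1), and nucleotide carriers and uncoupling (4) had 0 genes that passed limma's test in the 8 comparisons. Their largest changes with fish oil against chow were those of Sqor (-1.06 ± 0.30), Coq10a (-0.95 ± 0.30), Nubpl (1.02 ± 0.28), Mterf2 (1.28 ± 0.65), Cyc1 (0.020 ± 0.20) and Slc25a4 (-0.22 ± 0.38, SE), and in the tricarboxylic acid cycle that of Idh2 (0.33 ± 0.25). Kupffer cell and macrophage markers read mostly below 0 with fish oil (1 of 9 above 0 against chow, median -0.42, summed signal 2681 to 2920 against 3660 to 3903 with chow), with 0 called; their part in the members' values was not tested.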

How the data were processed

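Liver RNA of 10 samples was hybridised to Affymetrix Rat 230 2.0 arrays. The values the authors deposited are MAS5 signal intensity per probe set on a linear scale, as the submitters' processing notes name it without a version; further details and scan dates were not given in the sources used here. After 57 control probe sets were removed, log2(signal + 3.1) was taken, 3.1 being the 10th percentile, and the 40% of probe sets with the lowest mean (about 17.8) were left out. One mean per diet was fitted to 18625 probe sets on 10 arrays with limma 3.58.1 in R 4.3.3 (empirical Bayes with trend; 5 residual and 5.96 prior degrees of freedom), with 8 comparisons and an F-test, Benjamini-Hochberg adjusted over all probe sets. The script was tested on simulated data. Symbols came from the platform annotation, and a gene was represented by its brightest tested probe set.

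Named members were the 3 highest and 3 lowest in each comparison among those whose arrays do not overlap, core subunits, the inhibitor, isoform pairs, and per pathway list the genes called or the largest change with fish oil; others named were chosen after their values were seen. The members and lists were chosen with earlier results of these data known. Arrays of equal replicate number showed no shared difference across diets, and the labels do not say whether samples were paired. Alternatives were other scalings, filters, offsets, trends and thresholds, a fit of only the diets compared, a replicate block and each array left out. The 2% trimmed mean was 100 on every array. The number of arrays, 2 a diet, limits the precision.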

Additional observations from a re-analysis of the deposited data

Results flagged for a closer look

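With each gene read from its brightest tested probe set, both arrays of 1 high-fat diet lay above both chow arrays while both arrays of another lay below them for 7 of 83 genes (8.43%). These made 9 combinations of a gene with a pair of diets. Over all 10470 tested genes the share was 12.5%. The values are the differences between the 2 diets on the log2 scale; the difference itself was not tested apart from olive oil against lard, and none of these genes passed limma's test in any comparison. Coconut fat was above and olive oil below chow for Ndufa13 (0.372) and Atp5f1e (0.253), and coconut fat was above and lard below for Cox4i1 (0.157). Fish oil was above chow for Ndufab1, with lard below (0.352), for Ndufaf3, with lard below (0.356) and olive oil below (0.368), and for Sdhaf4, with olive oil below (0.763). Lard was above chow for Cox7c, with olive oil below (0.225) and coconut fat below (0.0995). The dimmer probe sets of Ndufv3, Ndufa7 and Atp5if1 held the same pattern and are not among these.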

How the results depend on the processing

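The number of members called stayed at 0 in all 169 combinations of an alternative with 1 of the 8 comparisons or the F-test. The replicate block was among the alternatives. The difference between arrays 1 and 2 was not shared between diets (10 correlations from -0.033 to 0.076, 0 of them above 0.1). These correlations cannot show whether the samples were paired in handling. The member median stayed within the duplicates' spread (0.10) of its value in the main fit in 153 of 160 combinations of an alternative with a comparison. In the other 7 combinations 1 array was left out. With each array left out in turn, the median ranged from -0.19 to 0.014 for lard against chow, -0.18 to 0.015 for olive oil, -0.053 to 0.14 for coconut fat, -0.078 to 0.13 for fish oil, -0.12 to 0.092 for the mean of the high-fat diets, and -0.048 to 0.18 for fish oil against the others. The lowest values against chow were those without the first chow array, and the value of 0.18 was that without the first fish oil array; without the second fish oil array fish oil against chow was -0.068. Directions against chow thus rest on single arrays. For coconut fat against lard and olive oil the range was 0.045 to 0.20. Members with both coconut fat arrays above all lard and olive oil arrays numbered 14 with quantile normalization, chosen after seeing the data, and 38 with the same 75th percentile, against 26.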
